A study of Homo sapiens with 6 samples.

Results

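The 10 genes described here specify actins, the cofilins and profilins that bind actin monomers, and the carriers that take actin into and out of the nucleus. They are ACTB, ACTG1, ACTL6A and ACTL8 among the actins and actin-like proteins, CFL1 and CFL2 among the cofilins, PFN1 and PFN2 among the profilins, and the transport factors IPO9 and XPO6. They were picked by gene symbol, and each matched 1 of the 60612 gene rows of the deposited table. All 10 were among the 14708 rows that reached a mean of 0.5 FPKM over the 6 libraries (FPKM being fragments scaled to gene length and to library size), so none was lost to the filter on low values.

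RNA was measured in SNU-368 cells, a line labelled as hepatocellular carcinoma, in 3 libraries of cells with a short hairpin RNA against TFAM (shTFAM) and 3 libraries of cells with a control hairpin (shCtrl). TFAM packages and helps transcribe mitochondrial DNA, and the study's title concerns nuclear actin assembly after its loss. The labels name no hairpin sequence, clone or day of culture, and do not say whether the 3 libraries of a group were separate cultures or lines, and the p-values then reflect only how these libraries vary, which may be technical. Total counts ran from 46263488 to 61058282 in shTFAM libraries and from 43286024 to 50910536 in shCtrl libraries.

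The targeted gene was lower in the hairpin cells: TFAM averaged 9.57 ± 0.950 FPKM in shTFAM and 13.5 ± 1.21 FPKM in shCtrl (SD, n = 3 each; log2 fold change -0.42, edgeR adjusted p 0.0377), a call that ended without any 1 library (edgeR adjusted p 0.0653 to 0.0970). Of 13 hepatocyte markers, ALB, AFP and APOA1 among them, 12 were at or below 0.1 FPKM in every library and 0 passed the filter. Of 5 epithelial markers, the keratins KRT8, KRT18 and KRT19 passed the filter, and KRT8 and KRT18 were abundant. Of these 3 keratins 1 rose and 2 did not pass the test, with a median log2 fold change of 0.47. EPCAM, at 0.0437 FPKM in shTFAM and 0.109 FPKM in shCtrl, and CDH1 did not pass the filter. The summed level of 8 fibroblast markers was 53.5 to 58.0 FPKM in shTFAM and 30.2 to 43.9 FPKM in shCtrl, a sum that COL1A1 dominates at 29.5 FPKM in shTFAM and 29.4 FPKM in shCtrl. Of the 5 fibroblast markers tested, DCN, PDGFRB and THY1 rose (log2 fold changes 2.95, 1.69 and 1.54). The sum of 9 muscle markers was 6.40 to 7.00 FPKM in shTFAM and 5.37 to 5.85 FPKM in shCtrl, with DES the only one tested. Of 6 leukocyte markers CD68 alone was tested and rose (1.43, edgeR adjusted p 0.00892), with PTPRC at 0 counts in every library, and their sum was 12.6 to 17.3 FPKM in shTFAM and 4.40 to 6.56 FPKM in shCtrl. Of the muscle markers, 7 of 9 were at or below 0.1 FPKM in all libraries. Their part in the results below was not tested, and in bulk RNA fewer cells of a type cannot be told apart from less RNA per cell. The library shCtrl 3 stood away from its group along the second principal component (15.5% of the variance), and calls among the 10 genes that change without it are given beside them.

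Actin exists as monomers and as filaments that grow from monomers and are taken apart again. Profilins load monomers onto growing ends, cofilins sever old filaments and release monomers, and thymosins hold monomers in reserve. Actin also enters the nucleus, carried in with cofilin by importin 9 (IPO9) and carried out with profilin by exportin 6 (XPO6). Inside, it is a subunit of chromatin remodellers together with actin-related proteins such as ACTL6A, and free monomers hold back MRTF, the cofactor of the transcription factor SRF.

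Among the 10 genes, ACTB rose and ACTL8 fell in shTFAM, and the cofilins, the profilins and both carriers did not pass the test. These 2 calls of 10 compare with 17.9% of all tested rows (11.3% higher, 6.59% lower), a share near that background. The same shares are the background for the counts of calls in the gene lists below. In ACTB, ACTG1, PFN2 and ACTL8 the shTFAM and shCtrl libraries did not overlap in counts scaled to library size (CPM), as was the case in 42.2% of all tested rows (22.1% with shTFAM above, 20.1% with shTFAM below). The test was the quasi-likelihood test of edgeR, run on deposited counts, with p-values adjusted over all tested rows and a threshold of 0.05. In the analyses that gave other counts among the 10 genes, the background moved too: 4 of 10 passed where 26.1% of all rows did (DESeq2), where 26.8% did (rows of at least 5 FPKM), where 14.2% did (without shCtrl 3) and where 13.6% did (shCtrl 3 and shTFAM 3 both left out). Without shCtrl 1, shCtrl 2, shTFAM 1, shTFAM 2 or shTFAM 3 in turn, 2 of 10 passed, against 8.94%, 7.99%, 11.9%, 9.17% and 9.46% of all rows. List counts given below with 1 library left out have these lower shares as their background. At a threshold of 0.01 only ACTB passed, against 4.75%.

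**Figure D1:**
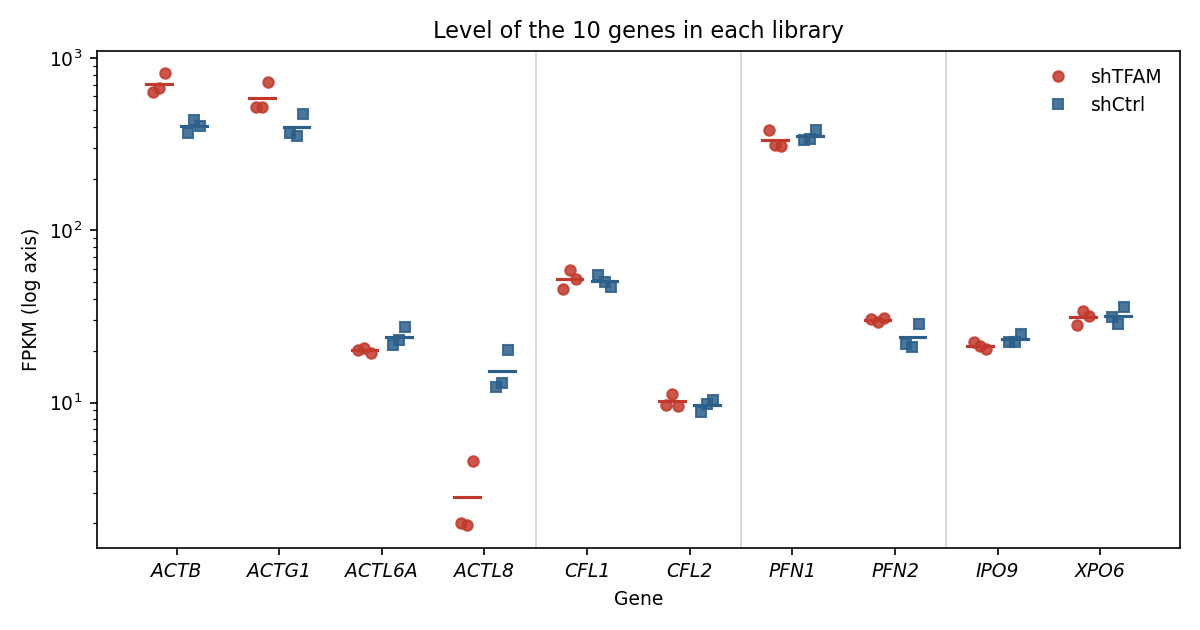
FPKM of each gene in the 3 shTFAM libraries (red circles) and the 3 shCtrl libraries (blue squares) on a log axis, with bars at the group means; vertical lines part actins, cofilins, profilins and carriers. ACTB, ACTG1 and PFN1 form a top tier above 300 FPKM, and ACTL8 spans the widest gap between groups, at 1.94 to 4.58 FPKM in shTFAM and 12.3 to 20.2 FPKM in shCtrl.

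The cytoplasmic actins came first. ACTB, beta-actin (ENSG00000075624, chromosome 7, 5526409 to 5563902, minus strand, hg38), stood at 636, 675 and 817 FPKM in the shTFAM libraries, and at 369, 437 and 404 FPKM in the shCtrl libraries. Every shTFAM library was above every shCtrl library, and shTFAM 3 was the highest library. The log2 fold change was 0.90 (SE 0.147, 95% interval 0.55 to 1.25, edgeR adjusted p 0.00956), a 1.87-fold rise. It kept its direction and its call in all 16 alternative analyses, with log2 fold changes from 0.76 to 0.99. ACTB took 0.371 ± 0.0524% of all counts in shTFAM and 0.210 ± 0.0176% in shCtrl (SD, n = 3 each).

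ACTG1, gamma-actin (ENSG00000184009, chromosome 17, 81509971 to 81514640, minus strand, hg38), stood at 518, 524 and 731 FPKM in the shTFAM libraries, and at 368, 352 and 475 FPKM in the shCtrl libraries. The groups did not overlap, but shTFAM 3 lay well above the other shTFAM libraries and shCtrl 3 well above the other shCtrl libraries. The log2 fold change of 0.66 (SE 0.193, 95% interval 0.20 to 1.11) did not pass (edgeR adjusted p 0.0561). It passed without shCtrl 3 (edgeR adjusted p 0.0477), with shCtrl 3 and shTFAM 3 both left out (0.0127), among rows of at least 5 FPKM (0.0466) and in DESeq2 (DESeq2 adjusted p 0.0105).

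The proteins of ACTB and ACTG1 are nearly alike, so the start of their coding sequences is shown to let the reader see where their transcripts differ. These are the first 48 bases in the GENCODE 29 transcripts (GRCh38), and capitals mark the 7 bases at which the pair differs.
ACTB: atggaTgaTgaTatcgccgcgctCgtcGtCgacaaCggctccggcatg
ACTG1: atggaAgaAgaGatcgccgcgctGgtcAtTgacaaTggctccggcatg
Over their whole coding sequences of 1128 bases the genes differed at 99 positions, an identity of 91.2%, and the longest stretch in common was 59 bases. That is shorter than the 150-base reads, and 0 of the 1772 windows of 150 bases in the ACTB transcript, and 0 of 1862 in that of ACTG1, occurred unchanged in a transcript of another gene. Processed copies of these genes in the genome held few counts. The 10 ACTB copy rows together reached at most 0.241% of the ACTB count in any library and the 20 ACTG1 copy rows at most 0.299% of the ACTG1 count, and 0 of their 3 tested rows passed.

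Within a library, the ratio of ACTB to ACTG1 in FPKM was 1.23, 1.29 and 1.12 in the shTFAM libraries and 1.00, 1.24 and 0.850 in the shCtrl libraries. The groups overlapped, and the mean log2 ratio differed by 0.25 (two-sided exact permutation p 0.3, where 3 against 3 libraries can give no less than 0.1). A difference in response between the pair was therefore not detectable with these libraries. Together they made up nearly all conventional actin mRNA: ACTB took 54.5 ± 1.68% of the summed FPKM of the 6 conventional actins in shTFAM and 50.3 ± 4.72% in shCtrl, and ACTG1 took 45.0 ± 1.89% in shTFAM and 49.4 ± 4.77% in shCtrl (SD, n = 3 each).

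The 300-base promoter window of ACTG1, from 250 bases before to 50 bases after the gene start (RefSeq, GRCh38.p14, chr17:81512750-81513049, minus strand), is shown because it holds a CArG box, the site that SRF binds, in capitals.
ACTG1 promoter: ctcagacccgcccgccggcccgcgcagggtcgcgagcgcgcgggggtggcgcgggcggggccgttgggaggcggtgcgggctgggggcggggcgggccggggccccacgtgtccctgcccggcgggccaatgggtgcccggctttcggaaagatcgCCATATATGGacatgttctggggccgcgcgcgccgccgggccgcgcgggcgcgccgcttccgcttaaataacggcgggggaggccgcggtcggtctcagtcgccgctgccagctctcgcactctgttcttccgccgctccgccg
The box begins 94 bases before the gene start. It was searched for as an exact match, which reads the same on both strands, in all 35116 promoter windows of that table, and 1.29% held one. Windows were listed for 7 of the 10 genes, ACTL8, IPO9, CFL1, CFL2, XPO6, PFN1 and ACTG1. Of these 7 genes ACTG1 alone held the box. ACTB, ACTL6A and PFN2 had no window, so the box could not be looked for in them. A match of letters describes the sequence and does not show binding.

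ACTL8, an actin-like gene known for expression in testis and in some tumours (ENSG00000117148, chromosome 1, 17755333 to 17827063, plus strand, hg38), was the gene of the 10 that changed most. It stood at 2.00, 1.94 and 4.58 FPKM in the shTFAM libraries, and at 12.3, 13.0 and 20.2 FPKM in the shCtrl libraries. The groups were far apart, and the third library of each group was the highest of its group. The log2 fold change was -2.31 (SE 0.404, 95% interval -3.26 to -1.36, edgeR adjusted p 0.0118), 4.96-fold lower in shTFAM. Only 1.51% of tested rows had a fitted log2 fold change further from 0. The fall held in all 16 alternatives, with log2 fold changes from -2.88 to -2.06. These values rest on 205, 195 and 618 counts in shTFAM and 1155, 1438 and 2115 counts in shCtrl, and no other row of the table overlapped the gene. Its nearest tested neighbour at lower coordinates, ARHGEF10L, 57464 bases away, had a log2 fold change of -0.34 and failed to pass (edgeR adjusted p 0.268).

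The promoter window of ACTL8 (RefSeq, GRCh38.p14, chr1:17755083-17755382, plus strand) is shown because this gene had the largest change of the 10. Capitals mark ACGTG on either strand, the core letters of the element that hypoxia-inducible factors bind, since PGK1, a textbook target of these factors, was higher in shTFAM cells (given with the reference genes).
ACTL8 promoter: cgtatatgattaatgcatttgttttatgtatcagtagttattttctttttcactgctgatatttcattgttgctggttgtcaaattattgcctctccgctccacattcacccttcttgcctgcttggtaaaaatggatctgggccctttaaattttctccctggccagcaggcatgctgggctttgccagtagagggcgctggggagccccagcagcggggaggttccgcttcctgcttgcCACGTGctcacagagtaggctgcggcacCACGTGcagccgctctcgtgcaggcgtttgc
The letters occurred 4 times, as overlapping matches on both strands at 2 places, beginning 9 bases before and 19 bases after the gene start. Both places read CACGTG, which is the same on both strands, so each gave 2 matches. They occurred in 21.4% of all promoter windows. Among the 7 genes with a window, ACTG1 and CFL2 held them as well. ACTL8 was lower and PGK1 higher in shTFAM, and a role of hypoxia-inducible factors in either change was not tested.

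ACTL6A (chromosome 3, 179562886 to 179588407, plus strand), also called BAF53A, is the actin-related subunit of the BAF, INO80 and TIP60 chromatin complexes. It stood at 20.3, 20.6 and 19.5 FPKM in the shTFAM libraries, and at 21.6, 23.2 and 27.6 FPKM in the shCtrl libraries. In FPKM every shTFAM library was lower, but in CPM with TMM scaling the groups overlapped, and the log2 fold change of -0.18 (SE 0.112, 95% interval -0.44 to 0.08) did not pass (edgeR adjusted p 0.298). Its row shares its end with MRPL47 on the other strand, whose counts reached 55.7% of those of ACTL6A, and no source used here gives the strand setting of the counting. A list of 26 other genes of chromatin complexes with actin or ACTL6A included SRCAP. ACTR5 and ACTR8 of INO80 were kept in the list of actin-related proteins instead. Among the 26, SMARCA2, an ATPase of BAF, rose (log2 fold change 0.51, edgeR adjusted p 0.0223). The ATPase RUVBL1 fell (-0.45, edgeR adjusted p 0.0456), and 24 did not pass. SMARCA2 lost its call in 7 of 15 alternatives and RUVBL1 in 8 of 16, among them every single left-out library, and in 4 of the 6 analyses with 1 library left out 0 of the 26 passed. The median over the 26 was -0.04, against -0.02 over all tested rows.

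The list of other actins and actin-related proteins held 27 genes, of which 12 passed the filter. Of these, 3 rose, 0 fell and 9 did not pass, with a median log2 fold change of -0.01; with 1 library left out 1 or 2 rose. ACTC1, the actin of heart muscle, stood at 6.70, 7.19 and 3.26 FPKM in the shTFAM libraries, and at 1.61, 1.40 and 0.811 FPKM in the shCtrl libraries. It was low but higher in every shTFAM library (log2 fold change 2.23, SE 0.369, edgeR adjusted p 0.010). ACTC1 took 0.461 ± 0.218% of conventional actin FPKM in shTFAM and 0.162 ± 0.0641% in shCtrl. The smooth muscle actin ACTA2 averaged 0.401 ± 0.0481 FPKM in shTFAM and 0.684 ± 0.270 FPKM in shCtrl (SD, n = 3 each; log2 fold change -0.68, edgeR adjusted p 0.226). ACTR3 of the Arp2/3 complex (0.45, edgeR adjusted p 0.0482) and ACTR1B of dynactin (0.39, edgeR adjusted p 0.0488) rose, calls that most alternatives ended, with edgeR or limma adjusted p up to 0.119 and 0.134. The nuclear ACTR5 and ACTR8, subunits of INO80, had log2 fold changes of -0.64 and -0.54 and did not pass (edgeR adjusted p 0.0589 and 0.0613).

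**Figure D2:**
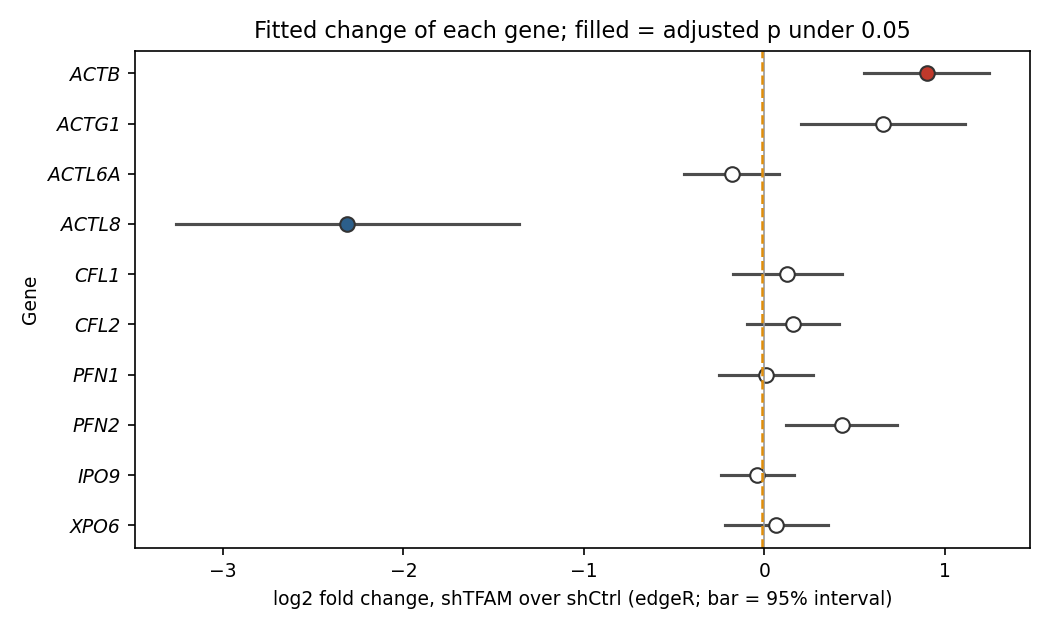
Log2 fold change of shTFAM over shCtrl from edgeR for each gene, with its 95% interval; the dashed line is the median of all tested rows, -0.02. ACTB (red, higher) and ACTL8 (blue, lower) passed, the intervals of ACTG1 and PFN2 lie above 0 but these genes did not pass after adjustment, and those of the other 6 genes include 0.

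Neither cofilin passed the test. CFL1, the non-muscle cofilin (chromosome 11, 65823022 to 65862026, minus strand), stood at 45.4, 59.0 and 52.2 FPKM in the shTFAM libraries, and at 55.0, 50.2 and 46.7 FPKM in the shCtrl libraries. The groups overlapped throughout, with a log2 fold change of 0.13 (SE 0.128, 95% interval -0.17 to 0.43, edgeR adjusted p 0.524). CFL2, the cofilin best known from muscle (chromosome 14, 34709113 to 34714823, minus strand), stood at 9.74, 11.1 and 9.58 FPKM in the shTFAM libraries, and at 8.82, 9.76 and 10.3 FPKM in the shCtrl libraries. It too overlapped, with a log2 fold change of 0.16 (SE 0.109, 95% interval -0.10 to 0.41, edgeR adjusted p 0.340). The upper bounds correspond to a rise of 1.35-fold for CFL1 and 1.33-fold for CFL2, both below the 1.87-fold fitted for ACTB. The CFL1 row overlaps MUS81 on the other strand, which held at most 7.96% of its counts, and its 8 processed copies held at most 2.95%.

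Cofilin is switched off by phosphorylation through LIM and TES kinases, which PAK and ROCK kinases can activate, and is switched on again by slingshot phosphatases and chronophin. Of 13 such genes, 5 rose, 0 fell and 8 did not pass, with a median log2 fold change of 0.35. Over all tested rows 11.3% rose and 6.59% fell, with a median of -0.02. On the kinase side, PAK4 averaged 7.25 ± 1.13 FPKM in shTFAM and 3.98 ± 0.145 FPKM in shCtrl (SD, n = 3 each; log2 fold change 0.95, edgeR adjusted p 0.00739), and LIMK1 6.37 ± 0.574 FPKM in shTFAM and 4.55 ± 0.473 FPKM in shCtrl (0.57, edgeR adjusted p 0.0263). On the phosphatase side, chronophin PDXP averaged 15.4 ± 1.18 FPKM in shTFAM and 12.0 ± 0.416 FPKM in shCtrl (0.44, edgeR adjusted p 0.0358), SSH1 had a log2 fold change of 0.37 (edgeR adjusted p 0.0407) and SSH3 of 0.39 (0.0464). The PAK4 call held in all 16 alternatives, whereas LIMK1 lost its call in 4. On the phosphatase side PDXP, SSH1 and SSH3 all lost their calls without any 1 library, so that only 1 or 2 of the 13 genes, PAK4 at times with LIMK1, then rose. In those analyses 7.99% to 14.2% of all rows passed, against 17.9% with all 6 libraries.

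PFN1, the main profilin (chromosome 17, 4945652 to 4948530, minus strand), stood at 384, 315 and 310 FPKM in the shTFAM libraries, and at 333, 341 and 384 FPKM in the shCtrl libraries. The groups overlapped fully, with a log2 fold change of 0.01 (SE 0.110, 95% interval -0.25 to 0.27, edgeR adjusted p 0.961). PFN2, the profilin that is abundant in brain (chromosome 3, 149964904 to 150022811, minus strand), stood at 30.6, 29.5 and 30.9 FPKM in the shTFAM libraries, and at 21.9, 21.1 and 28.6 FPKM in the shCtrl libraries. All shTFAM libraries were above all shCtrl libraries, although shCtrl 3 came close. The PFN2 log2 fold change of 0.43 (SE 0.131, 95% interval 0.12 to 0.74) did not pass (edgeR adjusted p 0.0628). It passed without shCtrl 3 (edgeR adjusted p 0.0149), with shCtrl 3 and shTFAM 3 both left out (0.0170), among rows of at least 5 FPKM (0.0460) and in DESeq2 (DESeq2 adjusted p 0.0369). PFN1 was the more abundant profilin per length in every library of both groups. The PFN1 row overlaps ENO3 on the other strand, which held at most 14.5% of its counts. The PFN2 row overlaps TMEM183B on the same strand, which held at most 9.40% of the PFN2 counts. TMEM183B had its highest count, 566, in shCtrl 3.

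Within a library, actin stood higher relative to the profilins and to the cofilins in shTFAM. The summed FPKM of ACTB and ACTG1 was 2.79, 3.48 and 4.54 times that of PFN1 and PFN2 in the shTFAM libraries, and 2.08, 2.18 and 2.13 times in the shCtrl libraries. The shCtrl ratios lay close together and below every shTFAM ratio, a difference of 0.73 in mean log2 ratio (1.66-fold; two-sided exact permutation p 0.1, the smallest that 3 against 3 can give). Against CFL1 and CFL2, actin stood at 21.0, 17.1 and 25.1 times in the shTFAM libraries, and at 11.5, 13.2 and 15.4 times in the shCtrl libraries. These groups did not overlap either, with a difference of 0.65 in mean log2 ratio (1.56-fold; two-sided exact permutation p of 0.1, which cannot be lower here). Such ratios do not depend on how libraries are scaled to one another, but an exact permutation test of 3 against 3 libraries cannot reach 0.05.

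**Figure D3:**
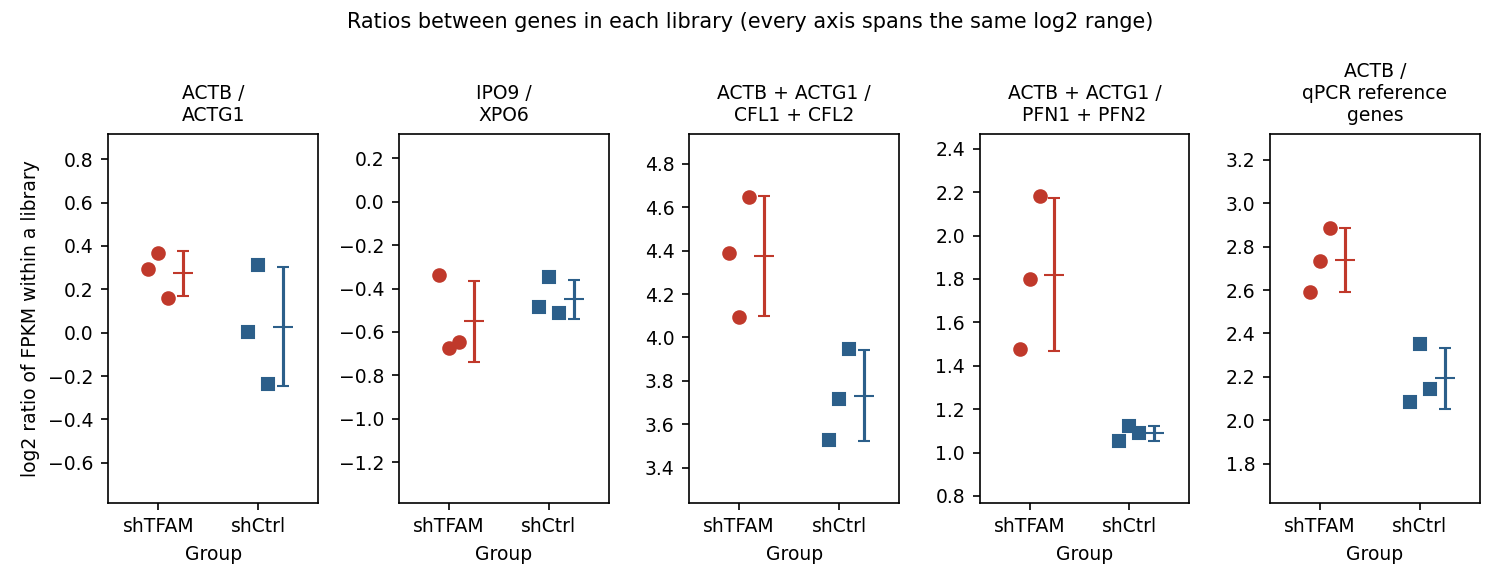
Log2 ratios of FPKM within each library for 5 pairs of genes or gene sums, in shTFAM (red circles) and shCtrl (blue squares); horizontal ticks and bars are means ± SD of 3 libraries, and every axis covers the same log2 range. The ratios of actin to profilins, of actin to cofilins and of ACTB to reference genes do not overlap between groups, while those of ACTB to ACTG1 and of IPO9 to XPO6 do.

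The list of other monomer binders and disassembly factors held 20 genes in 21 rows, of which 15 passed the filter. Of these, 6 rose, 0 fell and 9 did not pass, and the list median was 0.42 on the log2 scale; 3 to 6 rose when 1 library was left out. Thymosin beta-4, TMSB4X, stood at 106, 101 and 105 FPKM in the shTFAM libraries, and at 42.3, 41.6 and 52.8 FPKM in the shCtrl libraries. The groups were far apart and tight (log2 fold change 1.27, SE 0.116, edgeR adjusted p 0.00223). TMSB10, a second thymosin and one of the most abundant mRNAs here, averaged 2775 ± 256 FPKM in shTFAM and 1942 ± 49.3 FPKM in shCtrl (SD, n = 3 each; 0.60, edgeR adjusted p 0.0151). MTSS1, a membrane-bending protein that binds monomers, rose by 1.28 on the log2 scale and the coronin CORO1B, which acts with cofilin, by 0.70 (edgeR adjusted p 0.00884 and 0.0103). WDR1, the partner of cofilin in disassembly, rose as well (0.50, edgeR adjusted p 0.0322), as did CAP1, which recycles monomers (0.35, 0.0483). WDR1 lost its call in 7 of 16 alternatives and CAP1 in 12. TMSB10 lost its call in 2 of 16, without shCtrl 1 and without shCtrl 2. The cofilin relative DSTN had a log2 fold change of 0.21 and did not pass (edgeR adjusted p 0.204).

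Importin 9, IPO9 (ENSG00000198700, chromosome 1, 201829149 to 201884291, plus strand, hg38), stood at 22.4, 21.4 and 20.4 FPKM in the shTFAM libraries, and at 22.4, 22.4 and 25.0 FPKM in the shCtrl libraries. Its groups overlapped, with the narrowest interval of the 10 genes (log2 fold change -0.04, SE 0.0856, 95% interval -0.24 to 0.16, edgeR adjusted p 0.791). Exportin 6, XPO6 (ENSG00000169180, chromosome 16, 28097976 to 28211965, minus strand, hg38), stood at 28.3, 34.2 and 31.9 FPKM in the shTFAM libraries, and at 31.4, 28.4 and 35.7 FPKM in the shCtrl libraries. It overlapped as well (log2 fold change 0.07, SE 0.122, 95% interval -0.22 to 0.35, edgeR adjusted p 0.738). As folds of shTFAM over shCtrl, the 95% intervals run from 0.847 to 1.12 for IPO9 and from 0.859 to 1.28 for XPO6. The FPKM ratio of IPO9 to XPO6 was 0.792, 0.627 and 0.640 in the shTFAM libraries, and 0.714, 0.786 and 0.701 in the shCtrl libraries, with a difference of -0.10 in mean log2 ratio (two-sided exact permutation p 0.5). XPO6 was thus the higher of the pair per length in all 6 libraries.

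Other carriers of the importin and exportin family, with the Ran system that gives transport its direction, formed a list of 28 genes, of which 27 passed the filter. Of these, 3 fell, 0 rose and 24 did not pass. The log2 fold change was below 0 for 22 of the 27, against 7554 of all 14708 tested rows. The list median was -0.16, against -0.02 over all tested rows. Without shCtrl 3 the median was -0.09, with 2 fallen genes and 1 risen, and without shCtrl 2, shTFAM 2 or shTFAM 3 in turn 1 gene fell. The tRNA exporter XPOT averaged 29.1 ± 4.14 FPKM in shTFAM and 46.6 ± 1.23 FPKM in shCtrl (SD, n = 3 each; log2 fold change -0.60, edgeR adjusted p 0.0125). XPO5, the exporter of microRNA precursors, averaged 8.70 ± 1.13 FPKM in shTFAM and 14.1 ± 2.01 FPKM in shCtrl (-0.61, edgeR adjusted p 0.0239). RCC1, which charges Ran with GTP in the nucleus, had a log2 fold change of -0.50 (edgeR adjusted p 0.0432). RCC1 and XPO5 lost their calls in 7 and 3 of 16 alternatives, and XPOT kept its call in all 16.

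New actin is folded by prefoldin and the chaperonin CCT and then trimmed and modified at its end. In a list of 20 such genes, 19 passed the filter, and 3 fell, 1 rose and 15 did not pass, with a median log2 fold change of -0.21. That median rested on single libraries: it was -0.04 without shCtrl 3, -0.35 without shCtrl 1, -0.14 without shTFAM 1 and 0.01 with shCtrl 3 and shTFAM 3 both left out. The 3 fallen genes were all CCT subunits: TCP1 averaged 35.7 ± 6.45 FPKM in shTFAM and 65.4 ± 11.4 FPKM in shCtrl (SD, n = 3 each; -0.80, edgeR adjusted p 0.0199), CCT6A had a log2 fold change of -0.74 (edgeR adjusted p 0.0345) and CCT2 of -0.51 (0.0388). All 8 tested subunits had negative values, against 7554 of all 14708 tested rows. CCT8 at -0.08 lay nearest to 0, and the median of the 8 was -0.46. All 8 were negative under every other scaling too. With shCtrl 3 and shTFAM 3 both left out the median was -0.23 and CCT5 and CCT8 had values of 0.012 and 0.0012, and with 1 library left out 0 (without shTFAM 3) to 2 subunits fell. The subunits of shCtrl 3 were the highest in the series, with TCP1 at 78.5 FPKM there, against 60.6 and 57.1 FPKM in shCtrl 1 and shCtrl 2. The prefoldin subunit PFDN5 rose (0.29, edgeR adjusted p 0.0462), a call that 14 of 16 alternatives ended. Of the enzymes that process the amino end, the acetyltransferase NAA80 (0.43, edgeR adjusted p 0.157) and the protease ACTMAP (0.51, 0.115) did not pass.

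**Figure D4:**
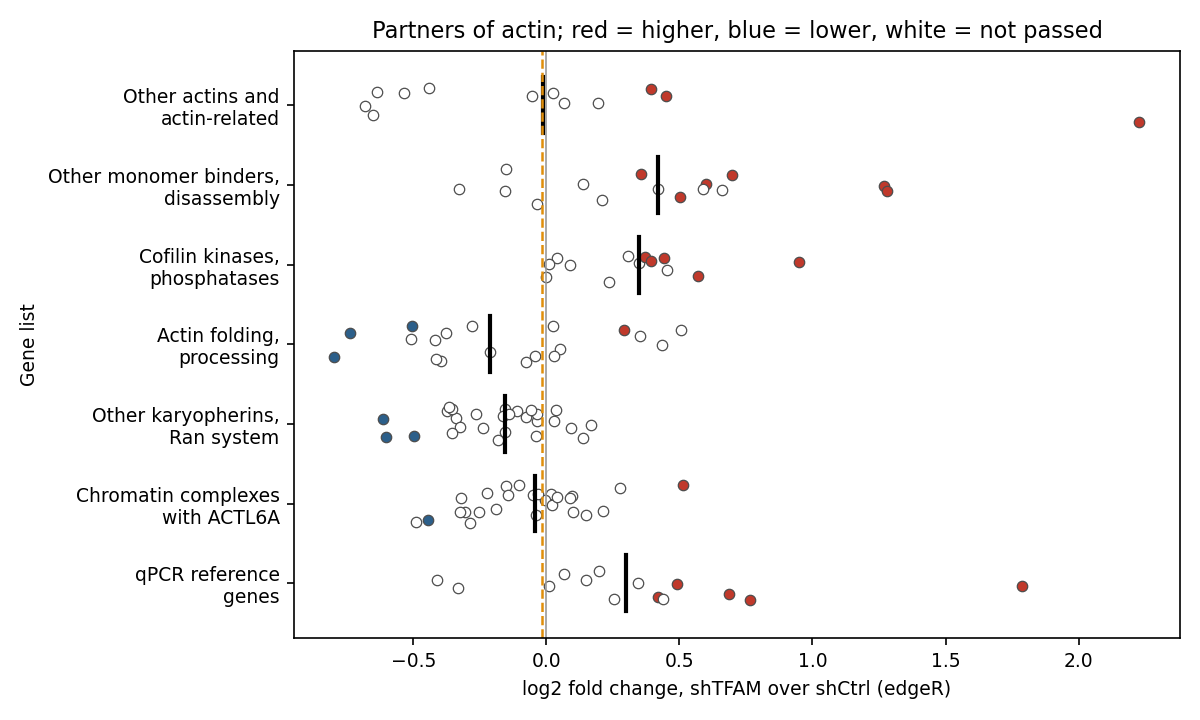
Log2 fold change of every tested gene in 7 lists of actin partners and reference genes (red, higher; blue, lower; white, not passed; vertical height within a row has no meaning). Black bars are list medians and the dashed line the median of all tested rows, -0.02. Medians lie at 0.42 for other monomer binders, 0.35 for cofilin kinases and phosphatases, 0.30 for reference genes and -0.21 for folding and processing.

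The transcription factor that responds to free actin, and its cofactors, did not pass the test. SRF stood at 16.8, 13.6 and 17.6 FPKM in the shTFAM libraries, and at 12.7, 12.7 and 10.8 FPKM in the shCtrl libraries. The groups did not overlap, but the log2 fold change of 0.49 did not pass (SE 0.140, edgeR adjusted p 0.0520). Its cofactors MRTFA (0.26, edgeR adjusted p 0.176) and MRTFB (0.92, edgeR adjusted p 0.0558) did not pass either. SRF and MRTFB passed without shTFAM 2 (edgeR adjusted p 0.0414 and 0.0164) and in DESeq2 (DESeq2 adjusted p 0.0174 and 0.00499).

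ACTB is often used as a reference gene in quantitative PCR, and it was therefore set against 14 other common reference genes. Of these 14, 5 rose, 0 fell and 9 did not pass, with a median log2 fold change of 0.30. With 1 library left out 2 rose, except without shCtrl 3, where 4 did, and with scaling to counts outside mtDNA 3 rose and 2 fell. PGK1 averaged 466 ± 105 FPKM in shTFAM and 144 ± 28.5 FPKM in shCtrl (SD, n = 3 each; 1.79, edgeR adjusted p 0.00394), and GAPDH 2738 ± 582 FPKM in shTFAM and 1712 ± 289 FPKM in shCtrl (0.77, edgeR adjusted p 0.0411). B2M (0.68, edgeR adjusted p 0.00457) and GUSB (0.49, edgeR adjusted p 0.0485) rose too. PGK1 and B2M kept their calls in all 16 alternatives, whereas GAPDH lost its call in 9 and GUSB in 14. RPLP0 (0.01) and YWHAZ (0.07) had values nearest to 0. The FPKM ratio of ACTB to the geometric mean of the 14 was 6.03, 6.66 and 7.39 in the shTFAM libraries, and 4.24, 5.11 and 4.42 in the shCtrl libraries. The groups did not overlap (difference of 0.54 in mean log2 ratio, with a two-sided exact permutation p of 0.1, which cannot be lower here), and without PGK1, GAPDH and TFRC the difference was 0.71.

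By level per length, the order in shTFAM was ACTB, ACTG1, PFN1, CFL1, XPO6, PFN2, IPO9, ACTL6A, CFL2 and ACTL8. The ranges of ACTB and ACTG1, of XPO6 and PFN2 and of IPO9 and ACTL6A overlapped, and the other neighbours were apart. In shCtrl the order was ACTB, ACTG1, PFN1, CFL1, XPO6, ACTL6A, PFN2, IPO9, ACTL8 and CFL2. There the ranges of ACTB, ACTG1 and PFN1 overlapped from each to the next, as did those of ACTL6A, PFN2 and IPO9. ACTL8 thus stood above CFL2 in shCtrl and below it in shTFAM, without overlap in either group.

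The rows whose pattern was most like that of ACTB, by Pearson correlation of log2(CPM + 0.5) over the 6 libraries, were LINC00165, LOX, CYTH1, NEK2 and MALL, with r from 0.996 to 0.998. LOX, a lysyl oxidase that crosslinks collagen, averaged 11.1 FPKM in shTFAM and 1.92 FPKM in shCtrl. As many as 1511 rows had r above 0.9 with ACTB. For IPO9 the most alike were HOXA7, TGDS, PKN2, PPHLN1 and PRPF31, with r from 0.983 to 0.995, and 183 rows had r above 0.9. These values describe these libraries only.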

How the data were processed

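The deposited table gives, per the file headers, counts and FPKM in each of the 6 libraries for 60612 Ensembl genes. Poly(A) RNA was made into strand-keeping paired-end libraries, per the labels' protocols. The submitters' processing notes name HISAT2 2.0.4, StringTie 1.3.4d, cutadapt 1.9 and Bowtie 0.12.2 and the builds hg38 and mm8, with no roles; the coordinates are human and are given as hg38. The counting tool and its strand setting are not given in the sources used here, so reads of overlapping genes may be shared.

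Rows averaging 0.5 FPKM or more were tested with edgeR 4.0.16 (R 4.3.3) on the deposited counts, with TMM scaling and Benjamini-Hochberg adjustment over 14708 rows. CPM are counts scaled to TMM-corrected library size. FPKM carry no TMM factor, so ratios of mean FPKM differ a little from fitted fold changes. SE is the log2 fold change over the root of the F statistic. DESeq2 1.42.0 and limma 3.58.1, other scalings and filters, and left-out libraries were alternatives. A count of 3, the floor of detection, is 0.0519 to 0.0677 CPM, for counting error only. No pair of replicates agreed within sampling noise (chi-square per degree of freedom at least 31.2). The 10 genes, the lists and the naming rule (all 10 genes, TFAM, SRF and its cofactors, up to 4 called genes per list by smallest p, and the 5 rows most like ACTB and IPO9) were chosen with earlier results of these data known. DSTN, WDR1, CAP1, SSH3, GUSB, ACTA2, ACTR5, ACTR8, NAA80, ACTMAP, CCT5, CCT8, RPLP0, YWHAZ, ARHGEF10L and the other neighbours given for the 10 genes were named after their values were seen. The values of 1 gene among the reference genes are not reported here.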

Additional observations from a re-analysis of the deposited data

How the results depend on the processing

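Across the 16 alternatives ACTB and ACTL8 kept their direction and call. Their count of 2 among the 10 genes became 4 in DESeq2, among rows of at least 5 FPKM and with shCtrl 3 and shTFAM 3 both left out, in each case by adding ACTG1 and PFN2; it was 2 to 4 over single left-out libraries and 1 (ACTB) at an adjusted p of 0.01. Over all rows the count of 2630 ran from 1170 to 2093 over single left-out libraries and was 698 at 0.01; DESeq2 gave 3837. Scaling to counts outside mtDNA moved the median of all rows from -0.02 to -0.15, and ACTB lay 0.91 above it. Small values changed sign. CFL1 was -0.00650 with scaling outside mtDNA and -0.0102 with quantile normalization. PFN1 was -0.0734 on log2(FPKM + 1), -0.0736 on log2(FPKM + 0.1), -0.0627 with library totals, -0.118 outside mtDNA and -0.0207 among rows of at least 5 FPKM. Over single left-out libraries PFN1 ran from -0.0863 to 0.0622, IPO9 from -0.0836 to 0.00194, XPO6 from -0.00582 to 0.141, HOXA7 from -0.236 to 0.0480 and PKN2 from -0.262 to 0.0887. XPO6 was -0.0153 and -0.0157 on the log2 FPKM scales, -0.0114 with library totals, -0.0648 outside mtDNA and -0.0317 with quantile normalization. With shCtrl 3 and shTFAM 3 both left out, IPO9 was 0.0252, HOXA7 0.105, TGDS 0.0223, PKN2 0.133, PPHLN1 0.0327, PRPF31 0.00431, CCT5 0.0120 and CCT8 0.00118. The cause was not tested. The 5 ratios kept their direction in every alternative. No paired analysis was possible because the titles give the groups no shared replicate numbers. The lowest count of the 10 genes was 195, for ACTL8 in shTFAM 2.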

Other observations

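Both cytoplasmic actin genes have a gene for fascin, a protein that bundles actin filaments, as their nearest tested neighbour at higher coordinates, and both neighbours rose. FSCN1, 28914 bases from ACTB, averaged 96.9 FPKM in shTFAM and 69.0 FPKM in shCtrl (log2 fold change 0.57, edgeR adjusted p 0.0375). FSCN2, 13737 bases from ACTG1 and known from the retina and inner ear, averaged 2.27 FPKM in shTFAM and 0.890 FPKM in shCtrl (1.44, edgeR adjusted p 0.0436). On the other side, FBXL18 next to ACTB (0.15, edgeR adjusted p 0.424) and BAHCC1 next to ACTG1 (-0.17, edgeR adjusted p 0.493) did not pass. Called neighbours were not particular to the actin genes. AP5B1 (0.69, edgeR adjusted p 0.00540) and EFEMP2 (2.00, 0.0294) rose beside CFL1, and RNF167 (0.43, 0.0358) beside PFN1. AC138904, next to XPO6, fell (-1.10, edgeR adjusted p 0.0438). Over all tested rows 11.3% rose and 6.59% fell. Whether the calls of FSCN1 and FSCN2 hold in the alternative analyses was not tested.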
